A study of Arabidopsis thaliana with 12 samples.

Results

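Pectin methylesterase genes were followed in whole Arabidopsis thaliana seedlings at 14 days. The set holds 10 genes picked by gene identifier: PME1 (AT1G53840), PME2 (AT1G53830), PME3 (AT3G14310), PME5 (AT5G47500), PME12 (AT2G26440), PME17 (AT2G45220), PME41 (AT4G02330), PME44 (AT4G33220), PME61 (AT3G59010, also named PME35) and AT3G49220, which has no symbol in the reference gene table. They take 11 of the 31788 loci measured, because PME3 was split over 2 loci. No locus of the set is shared with another gene. RNA-seq was done on 3 libraries each of the mutants pkl, clf and lhp1 and of wild type (WT), 12 in all by their titles; the labels name no allele or accession and do not say whether libraries of a group came from separate cultures. All groups were grown alike on MS medium, in long days. The 3 mutated genes act on chromatin: CLF, a Polycomb methyltransferase, places H3K27me3, LHP1 binds that mark, and PKL is a remodeller of the CHD3 kind. The question asked here is which pectin methylesterase genes differ from WT in each mutant.

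Pectin is laid down in the wall with its galacturonic acid residues largely methylesterified. Pectin methylesterases remove the methyl groups; the freed acids can bind calcium and stiffen the wall, or expose the chain to polygalacturonases and pectate lyases and loosen it. Protein inhibitors bind the enzymes, and many of the enzymes carry an inhibitor-like pro region that subtilisin-type proteases cut off.

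Levels are the authors' FPKM (fragments scaled to transcript length and to library size), with 1 value per genotype. No value therefore carries a replicate error, and the depth behind it is unknown. A gene is called, and said to rise or fall, where the authors' test gave a q-value under 0.05. Fold changes are log2 of mutant FPKM over WT FPKM. The standard error (SE) beside them is the one implied by the authors' p-value; where p is the smallest in the tables, 5e-05, the SE is an upper limit. PKL stood at 6.83 FPKM in pkl against 20.8 in WT, CLF at 0.264 in clf against 8.37 in WT (not called) and LHP1 was listed at 0 in lhp1 against 12.1 in WT. Leaf markers summed to 15026 to 22932 FPKM and root markers to 2001 to 3555 FPKM over the genotypes, so shoot and root RNA were both present, and 5 pollen-type pectin methylesterase genes summed to at most 0.473 FPKM. In such bulk samples fewer cells of a type and less RNA per cell cannot be told apart.

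The windows of 250 bases upstream of the start of 3 genes are shown: PME61 had the largest fold changes of the set, PME3 is its most abundant gene and PME2 is the gene closest to PME3 in sequence. They were read from the RefSeq genome TAIR10.1 and are written 5′ to 3′ on the gene's strand. Capitals mark matches on either strand to TATAAA (a form of the core promoter TATA box, marked at any distance from the start) or AAACCCTA (a telobox, one of the short elements linked to Polycomb recruitment in Arabidopsis), which overlap each other at the end of the PME2 window. In PME61 the TATAAA matches lie 174 to 181 bases before the start. Other forms of the TATA box were not searched. GAGAGA and CACGTG were searched as well and matched none of these 3.
PME61, chr3:21805336-21805585, minus strand: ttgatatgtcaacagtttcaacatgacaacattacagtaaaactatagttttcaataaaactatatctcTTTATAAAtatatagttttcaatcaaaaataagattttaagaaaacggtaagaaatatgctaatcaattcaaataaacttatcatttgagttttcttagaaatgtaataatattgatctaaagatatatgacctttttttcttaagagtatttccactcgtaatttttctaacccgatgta
PME2, chr1:20098272-20098521, plus strand: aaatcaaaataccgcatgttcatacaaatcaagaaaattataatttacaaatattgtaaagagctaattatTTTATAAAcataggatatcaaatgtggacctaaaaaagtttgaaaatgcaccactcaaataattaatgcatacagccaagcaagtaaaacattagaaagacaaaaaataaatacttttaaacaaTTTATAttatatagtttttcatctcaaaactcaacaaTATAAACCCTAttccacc
PME3, chr3:4775259-4775508, minus strand: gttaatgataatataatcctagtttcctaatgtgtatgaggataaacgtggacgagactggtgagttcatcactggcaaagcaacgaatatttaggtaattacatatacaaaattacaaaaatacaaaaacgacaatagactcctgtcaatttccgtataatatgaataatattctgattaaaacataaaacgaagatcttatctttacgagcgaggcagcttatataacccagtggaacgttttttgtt

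Of the 10 windows, 1 held AAACCCTA (PME2), 2 held GAGAGA (PME1 and PME12), 1 held CACGTG (PME44) and 5 held TATAAA. Over the windows of 27443 protein-coding genes the shares were 4.49%, 20.6%, 6.49% and 47.3%, in the same order of motifs. These matches are letters in a window and say nothing of binding.

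The 10 genes spanned a wide range of levels. In WT the order was PME3 at 497 FPKM, AT3G49220 at 86.7, PME1 at 45.0, PME44 at 44.9, PME17 at 38.7, PME12 at 36.8, PME5 at 13.7, PME41 at 6.17, PME2 at 6.09 and PME61 at 2.96. PME1 and PME44, and PME41 and PME2, are neighbours in this order with nearly equal FPKM in WT, and levels of different genes were not tested against each other. The highest of the 4 genotype values was 1.14 times the lowest for PME44 and 3.61 times for PME61; it was under 1.5 times for 5 genes and over 2 times for PME61 and PME41 only.

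**Figure D1:**
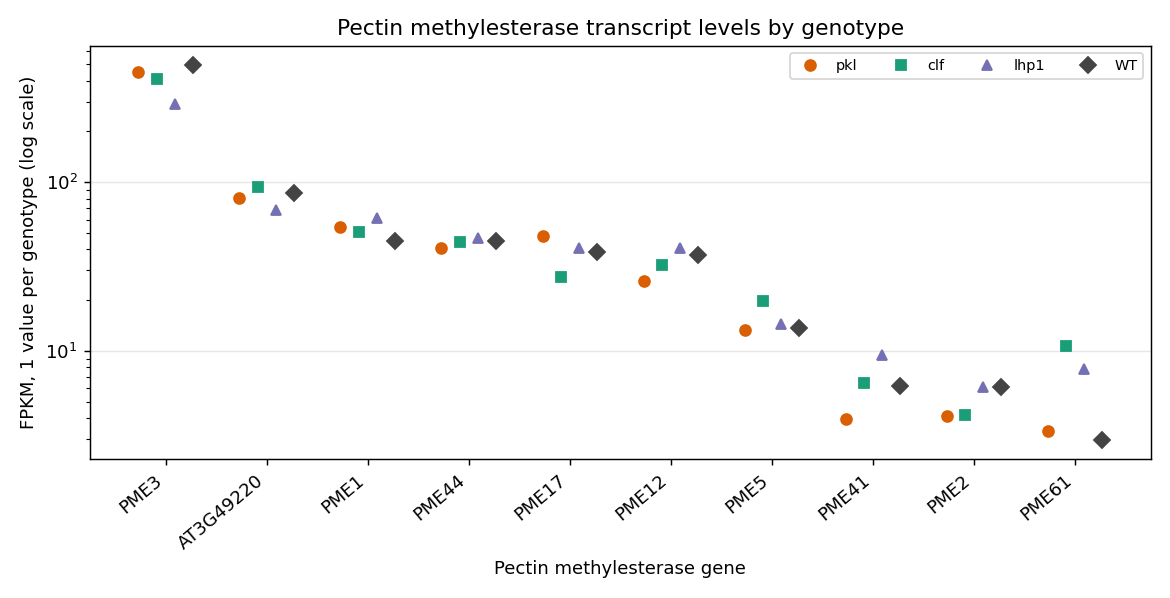
FPKM (vertical axis, log scale) of the 10 genes (horizontal axis, ordered by WT level), with 1 point per genotype as deposited and no error available. PME3 lies at 289 to 497 FPKM, far above the rest, and PME61 lies at 10.7 in clf and 7.83 in lhp1 against 2.96 in WT.

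In pkl 3 of the 10 genes fell and 0 rose, in clf 2 rose and 2 fell, and in lhp1 3 rose and 1 fell. Over all named loci tested, 6.71% were called higher and 6.75% lower in pkl, 7.15% and 5.28% in clf, and 11.1% and 10.6% in lhp1, or 13.5%, 12.4% and 21.7% in either direction. All 10 genes were tested in each mutant. Their median log2 fold change was -0.12 in pkl, 0.03 in clf and 0.08 in lhp1, beside 0.02, -0.01 and 0.03 over all named loci tested. Between the genes, 3 were called in 2 mutants, 5 in 1 mutant and 2 in none. The 3 comparisons share the same WT values.

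**Figure D2:**
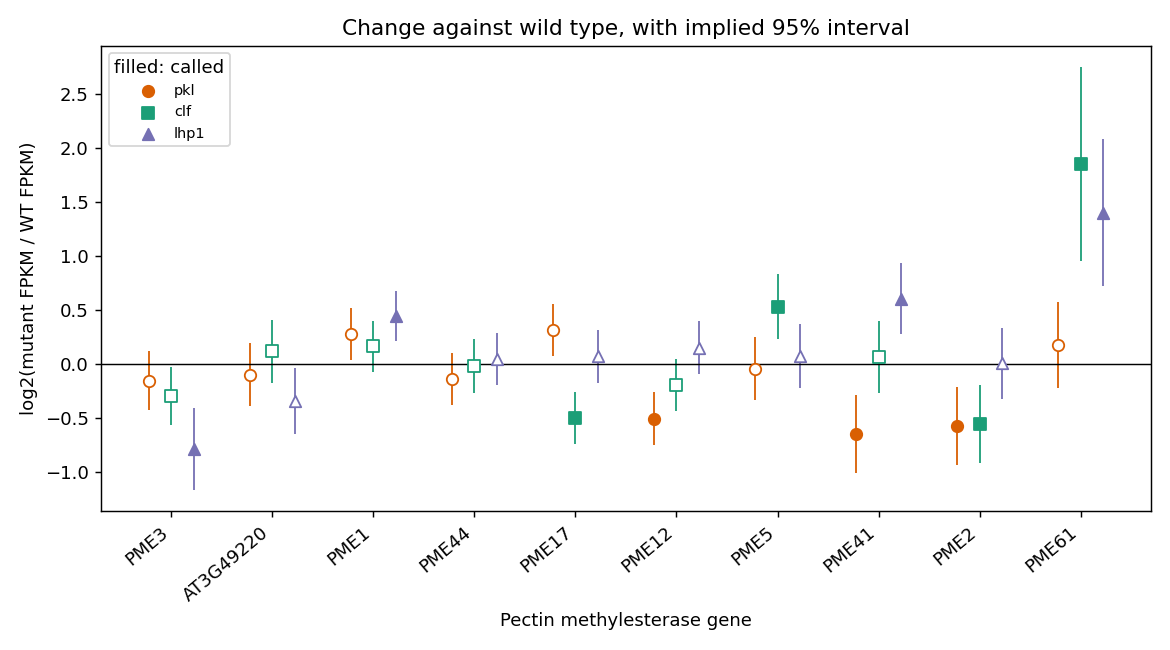
log2 of mutant FPKM over WT FPKM (vertical axis) for each gene (horizontal axis, ordered by WT level) in pkl, clf and lhp1; bars are 1.96 implied SE to each side, an upper limit for the 5 points whose p is 5e-05, and filled symbols are called. PME61 has the highest points, 1.85 in clf and 1.40 in lhp1, and PME41 is filled below 0 in pkl and above 0 in lhp1.

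Among the genes tied to shoot and stem growth, PME61 rose in clf and lhp1 and PME5 rose in clf. PME61, which acts on the walls of the fibres that support the stem, stood at 3.35 FPKM in pkl, 10.7 in clf and 7.83 in lhp1, against 2.96 in WT. It was thus high in clf and lhp1, with the pkl value close to WT. The log2 fold change was 1.85 in clf (SE at most 0.46) and 1.40 in lhp1 (SE at most 0.35), each with q = 0.000661 in the authors' deposited table. In pkl it was 0.18, with q = 0.674 in the authors' deposited table; the implied 95% interval ran from -0.22 to 0.58. The gene lies on the minus strand of chromosome 3, with the authors' locus at 21802805 to 21805214 (TAIR10), and RefSeq gives it 2 exons and 1590 coding bases.

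PME5, whose forced activity in the shoot meristem triggers ectopic organ primordia, stood at 13.3 FPKM in pkl, 19.8 in clf and 14.4 in lhp1, against 13.7 in WT. Only the clf value stands apart. There the log2 fold change was 0.53 ± 0.15 (implied SE), with q = 0.00457 in the authors' deposited table. The implied 95% intervals ran from -0.33 to 0.25 in pkl and from -0.22 to 0.37 in lhp1. PME5 (chromosome 5, 19270959 to 19272966) has the shortest coding sequence of the set, 1089 bases in 5 exons; the other 9 have 1536 to 1932 coding bases.

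Floral identity genes also rose in clf and lhp1. AG, AP3, PI, SEP3 and AP1 summed to 7.70 FPKM in pkl, 213 in clf and 329 in lhp1, against 11.4 in WT, and all 5 rose in clf and in lhp1. The sum was highest in lhp1, where PME5 was not called and PME61 lay below its clf value. Most of the sum came from SEP3, at 166 FPKM in clf and 232 in lhp1. AP3, PI and AP1 were also higher in lhp1 than in clf, but AG stood at 31.1 FPKM in clf and 11.0 in lhp1. The tables hold no test of clf against lhp1. The part of the floral genes in the PME61 and PME5 results was not tested.

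By likeness over the 3 log2 fold changes, the genes nearest to PME61 among 13264 single-gene loci that reached 5 FPKM in some genotype and were above 0 in all were ERF5, an ethylene response factor, at a Euclidean distance of 0.114, and the zinc finger genes SZF1 at 0.165 and CZF1 at 0.198. ERF5 stood at 9.83 FPKM in pkl, 28.2 in clf and 21.4 in lhp1, against 8.10 in WT. The likeness rests on 3 values per gene that share WT.

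Of the genes tied to roots and to responses to microbes or metals, PME3 fell in lhp1 and PME17 fell in clf. PME3, known for tolerance of zinc and for its part in infection by nematodes and necrotrophs, stood at 448 FPKM in pkl, 406 in clf and 289 in lhp1, against 497 in WT. All 3 mutants lay below WT, lhp1 the furthest. The log2 fold change in lhp1 was -0.78 (SE at most 0.19, q = 0.000661 in the authors' deposited table). In clf it was -0.29 ± 0.14 (implied SE; the authors' deposited table gives q = 0.141), and in pkl -0.15, with an implied interval from -0.42 to 0.12. The second locus under the same name, at the same bounds (chromosome 3, 4771273 to 4775328), held 4.34 FPKM in pkl, 2.66 in clf and 1.84 in lhp1, against 3.31 in WT, and was not called; its strand is not given.

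PME3 alone made up 61.9% of the summed FPKM of the 10 genes in pkl, 58.4% in clf and 49.4% in lhp1, against 63.9% in WT. Without it the other 9 summed to 275 FPKM in pkl, 290 in clf and 296 in lhp1, against 281 in WT, so the sum of all 10 (723, 696 and 585 in the mutants and 778 in WT) followed PME3.

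PME17, which with the subtilase SBT3.5 promotes root growth and is induced by infection, stood at 48.2 FPKM in pkl, 27.5 in clf and 40.8 in lhp1, against 38.7 in WT. It was lowest in clf and highest in pkl. The fall in clf was -0.49 on the log2 scale (SE at most 0.12), with q = 0.000661 in the authors' deposited table. In pkl the log2 fold change of 0.32 ± 0.12 (implied SE) missed the threshold (q = 0.0611, from the authors' deposited table), and in lhp1 the implied interval ran from -0.17 to 0.32. The locus is on chromosome 2, 18644084 to 18646447.

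Root markers moved in both directions over the mutants. PYK10, CASP1, WER, COBL9 and EXPA7 summed to 2012 FPKM in pkl, 2119 in clf and 3555 in lhp1, against 2001 in WT, most of it from PYK10. CASP1 and COBL9 fell in clf, where PME17 fell. EXPA7 rose in pkl, where neither PME3 nor PME17 was called, and PYK10 rose in lhp1, where PME3 fell. WER was called in no mutant. Their part in the PME3 and PME17 results was not tested.

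PME41, linked to the response to chilling and to brassinosteroid, was called in opposite directions in 2 mutants. It stood at 3.95 FPKM in pkl, 6.49 in clf and 9.41 in lhp1, against 6.17 in WT. The clf value lay near WT, with pkl below and lhp1 above it. The log2 fold change was -0.64 ± 0.18 in pkl (implied SE, q = 0.00500 in the authors' deposited table) and 0.61 ± 0.17 in lhp1 (implied SE, q = 0.00323 in the authors' deposited table). The lhp1 value was 2.38 times the pkl value, a log2 difference of 1.25; the tables hold no test of lhp1 against pkl. PME41 lies on chromosome 4, 1032413 to 1035037, with 2 exons.

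PME1 and PME2 are tandem neighbours on the plus strand of chromosome 1, at 20101445 to 20103667 and 20098522 to 20100889. PME2 stood at 4.11 FPKM in pkl, 4.16 in clf and 6.14 in lhp1, against 6.09 in WT. Its pkl and clf values were low and nearly equal, and its lhp1 value matched WT within 1.01 times. The log2 fold change was -0.57 ± 0.18 in pkl (q = 0.0161 in the authors' deposited table) and -0.55 ± 0.18 in clf (q = 0.0190 in the authors' deposited table), both with implied SE; in lhp1 the implied interval ran from -0.32 to 0.34. PME1 stood at 54.5 FPKM in pkl, 50.5 in clf and 61.2 in lhp1, against 45.0 in WT, so each mutant lay above WT. It was called in lhp1 alone, at 0.44 ± 0.12 (implied SE, q = 0.00177 in the authors' deposited table); in pkl the value was 0.28 ± 0.12 with q = 0.109 in the authors' deposited table. The neighbours were thus called in different mutants and in opposite directions. The symbol PME1 is also used in the reference table for the inhibitor gene AT4G12390, which is not the gene described here.

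PME12 fell in pkl. It stood at 25.9 FPKM in pkl, 32.3 in clf and 41.0 in lhp1, against 36.8 in WT, with a log2 fold change in pkl of -0.50 (SE at most 0.12, q = 0.000661 in the authors' deposited table). The implied intervals were -0.43 to 0.05 in clf and -0.09 to 0.40 in lhp1. PME12 lies on chromosome 2, 11247383 to 11249493.

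AT3G49220 and PME44 were called in no mutant. AT3G49220, the most abundant of the set after PME3, stood at 81.1 FPKM in pkl, 94.1 in clf and 68.6 in lhp1, against 86.7 in WT. Its lowest value, in lhp1, gave a log2 fold change of -0.34 ± 0.16 (implied SE) with q = 0.131 in the authors' deposited table. PME44 stood at 40.7 FPKM in pkl, 44.4 in clf and 46.4 in lhp1, against 44.9 in WT. The implied intervals of its log2 fold changes ran from -0.38 to 0.10 in pkl, -0.26 to 0.23 in clf and -0.19 to 0.29 in lhp1. Their loci are on chromosome 3, 18249776 to 18253849, and chromosome 4, 16022439 to 16026360.

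Sequence likeness between family members bears on how reads were divided, and how the authors handled shared reads is not stated by the labels. The closest pair in the set was PME2 and PME3, whose transcripts aligned with 83.1% identity over 693 bases. PME2 is the rarer of them in every genotype, so any reads placed on the wrong gene of the pair would weigh more on its values. Whether reads were misplaced was not measured. For the other 8 genes the best alignment elsewhere in the genome reached 64.0% to 73.7% identity.

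The list used for the family has 56 genes beside the 10. Of the 55 of these with a locus of their own, 32 were under 1 FPKM in WT. In each mutant 26 genes outside the set were tested, though not all the same ones. Of these, 7 rose and 1 fell in pkl, 0 rose and 4 fell in clf, and 5 rose and 2 fell in lhp1, with median log2 fold changes of 0.33, -0.10 and 0.13. The lhp1 median rests on 25 genes, since AT5G26810, called at 0.794 FPKM in lhp1, was listed at 0 in WT. Over all named loci tested, 13.5% were called in pkl, 12.4% in clf and 21.7% in lhp1. In pkl the set described above had 0 rises and 3 falls; the difference between the groups of genes was not tested. AT5G51500 stood at 3.87 FPKM in pkl against 0.565 in WT, AT2G19150 at 1.62 against 0.685 and AT5G20860 at 3.22 against 1.63, and these rose. AT3G10720 fell in all 3 mutants, to 19.5 FPKM in pkl, 21.2 in clf and 19.3 in lhp1, against 36.6 in WT. ATPMEPCRD (AT2G43050), the closest relative of PME61 by alignment (71.1% identity over 754 bases), fell to 2.07 FPKM in clf and 1.59 in lhp1, against 3.89 in WT, where PME61 rose. AT2G47550 fell to 4.16 in clf and rose to 12.4 in lhp1, against 6.19 in WT.

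PMEPCRA (AT1G11580), the most abundant family gene outside the set, rose in lhp1, the mutant in which PME3 fell. It stood at 400.4 FPKM in lhp1 against 167 in WT, a log2 fold change of 1.26 (SE at most 0.31) with q = 0.000661 in the authors' deposited table. PME3 and PMEPCRA exchanged places as the most abundant family gene: 289 and 400.4 FPKM in lhp1, against 497 and 167 in WT. The summed FPKM of the family was 1149 in pkl, 1083 in clf and 1253 in lhp1, against 1204 in WT, and the 10 genes held 62.9%, 64.3% and 46.7% of it in the mutants, against 64.6% in WT.

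**Figure D3:**
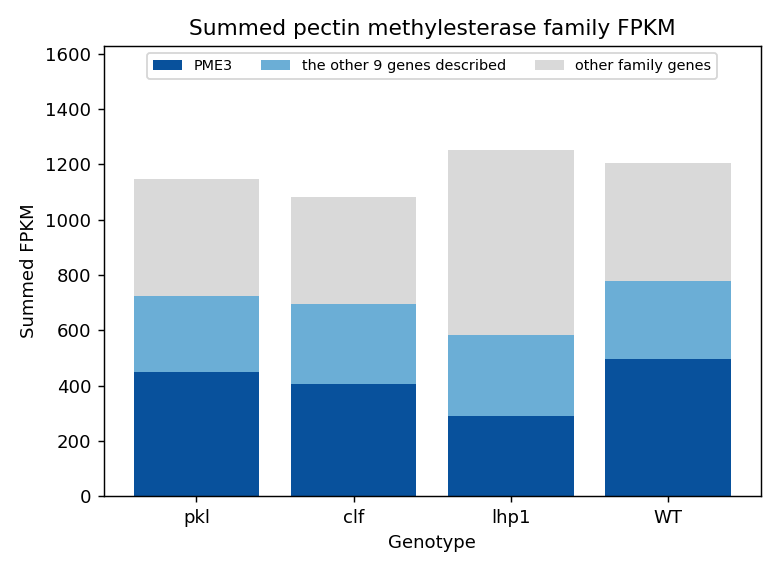
Summed FPKM of pectin methylesterase genes (vertical axis) by genotype (horizontal axis), split into PME3, the other 9 genes of the set and the rest of the family; 1 value per genotype, no error available. The PME3 part is 289 in lhp1 against 497 in WT, while the family sum is 1253 in lhp1 against 1204 in WT.

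**Figure D4:**
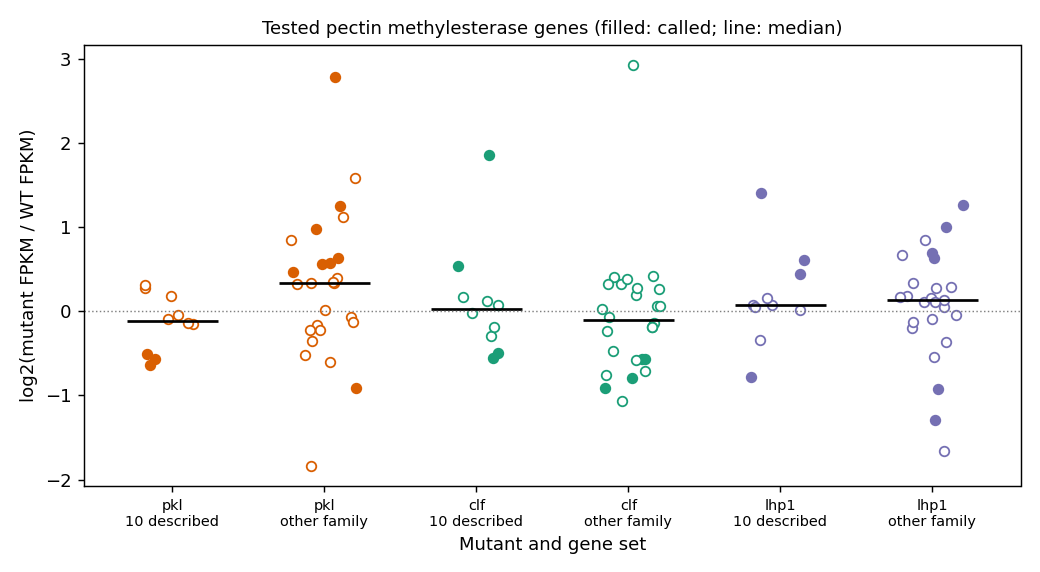
log2 of mutant FPKM over WT FPKM (vertical axis) of each tested family gene, by mutant and by set (horizontal axis); filled points are called and the line is the median. In pkl the median is -0.12 for the 10 genes and 0.33 for the other family genes; AT5G26810, listed at 0 in WT, has no point in lhp1.

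Genes for inhibitors of these enzymes and their relatives moved in both directions in every mutant. In pkl 6 of 15 tested rose and 2 fell, in clf 3 of 17 rose and 6 fell, and in lhp1 3 of 16 rose and 4 fell. The median log2 fold changes were 0.40, -0.21 and -0.38. Over all named loci tested, 13.5% were called in pkl, 12.4% in clf and 21.7% in lhp1. AT5G62360 fell to 21.6 FPKM in pkl and 17.6 in lhp1, against 57.4 in WT, and AT1G62770 fell to 13.7 in pkl against 34.6 in WT. AT5G20740 rose to 29.6 FPKM in clf and 33.7 in lhp1, against 10.9 in WT. AT1G62760 rose to 3.15 FPKM in clf and 7.26 in lhp1, against 1.12 in WT, AT5G51520 rose to 2.55 in pkl against 0.732 in WT, and UNE11 fell to 7.79 in clf against 16.6 in WT. AT4G25260 shares its locus with 3 other genes and is not in these counts. That locus fell to 37.2 FPKM in lhp1 against 64.5 in WT and was not called in pkl or clf.

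Genes annotated to other classes of enzyme that act on pectin were counted by class, and the classes were not tested against each other. Class was checked by annotated name alone, so a listed gene, JP630 among them, need not encode an active enzyme. The shares called over all named loci, 13.5% in pkl, 12.4% in clf and 21.7% in lhp1, stand as background to these short lists and those that follow. Polygalacturonases cut the demethylesterified chain. Of the genes annotated as such, 2 of 6 tested rose in pkl and 0 fell, and 1 rose and 1 fell in clf. In lhp1 5 of 7 rose and 0 fell, among them AT1G48100 at 8.67 FPKM in lhp1 against 1.88 in WT. JP630 rose to 2.71 FPKM in pkl, 2.86 in clf and 4.68 in lhp1, against 1.77 in WT. PGX1, which acts in cell expansion, fell to 1.73 in clf and rose to 4.80 in lhp1, against 3.09 in WT, and AT1G60590 rose to 6.43 in pkl against 2.26 in WT. ADPG1, of dehiscence zones, was listed at 0 in WT and at 5.66 FPKM in lhp1. PG1 (AT1G60390) shares its locus with 1 other gene and is not in the polygalacturonase counts. That locus rose to 17.4 FPKM in pkl, 14.7 in clf and 15.6 in lhp1, against 10.5 in WT. Of 11 pectate lyases, 2 rose and 3 fell in pkl, 1 rose and 1 fell in clf, and 0 rose and 3 fell in lhp1. AT5G63180 fell in all 3 mutants, to 50.3 FPKM in pkl, 47.5 in clf and 26.0 in lhp1, against 68.5 in WT. AT5G48900 fell to 8.84 in pkl and 8.71 in lhp1, against 15.9 in WT, and AT3G27400 fell to 2.93 in lhp1 against 5.02 in WT. AT1G67750 rose to 16.4 FPKM in pkl and 17.7 in clf, against 12.3 in WT. Of 8 pectin acetylesterases, 2 rose in pkl, 2 in clf and 4 in lhp1, and none fell; PAE8 stood at 102 FPKM in pkl, 152 in clf and 122 in lhp1, against 68.6 in WT. AT1G57590 rose to 15.6 FPKM in pkl against 8.81 in WT, AT5G26670 to 8.82 in clf and 10.7 in lhp1 against 5.82 in WT, and AT3G05910 to 47.1 in lhp1 against 32.4 in WT.

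Pectin synthesis genes, subtilases and wall receptors were counted in the same way. Of 7 pectin synthesis genes 0 were called in pkl, and GAUT15, of the galacturonosyltransferase family, was the 1 that rose in clf (11.9 FPKM against 7.79 in WT) and in lhp1 (11.3). Of 4 subtilases 0 were called in pkl, and SBT1.3 rose to 65.9 FPKM in clf and 67.1 in lhp1, against 36.1 in WT; SBT3.5, the partner of PME17, shares its locus with 2 other genes and is not in these counts. That locus fell to 7.93 FPKM in pkl, 7.19 in clf and 8.24 in lhp1, against 11.1 in WT. Wall receptors, kinases that bind pectin or sense the wall, fell where called: 3 of 5 in pkl, 1 in clf and 4 in lhp1. WAK4 shares its locus with 2 other genes and is not in these counts. The WAK4 locus was called in no mutant, at 10.6 FPKM in pkl, 10.8 in clf and 10.2 in lhp1, against 9.38 in WT. WAK1 stood at 17.1 FPKM in pkl and 47.3 in lhp1, against 94.2 in WT, WAK2 at 25.2 and 23.0 against 49.6, and WAK3 at 0.748 in pkl, 1.51 in clf and 1.23 in lhp1, against 3.20 in WT. These lists are described by counts alone, and nothing particular to them was tested.

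**Figure D5:**
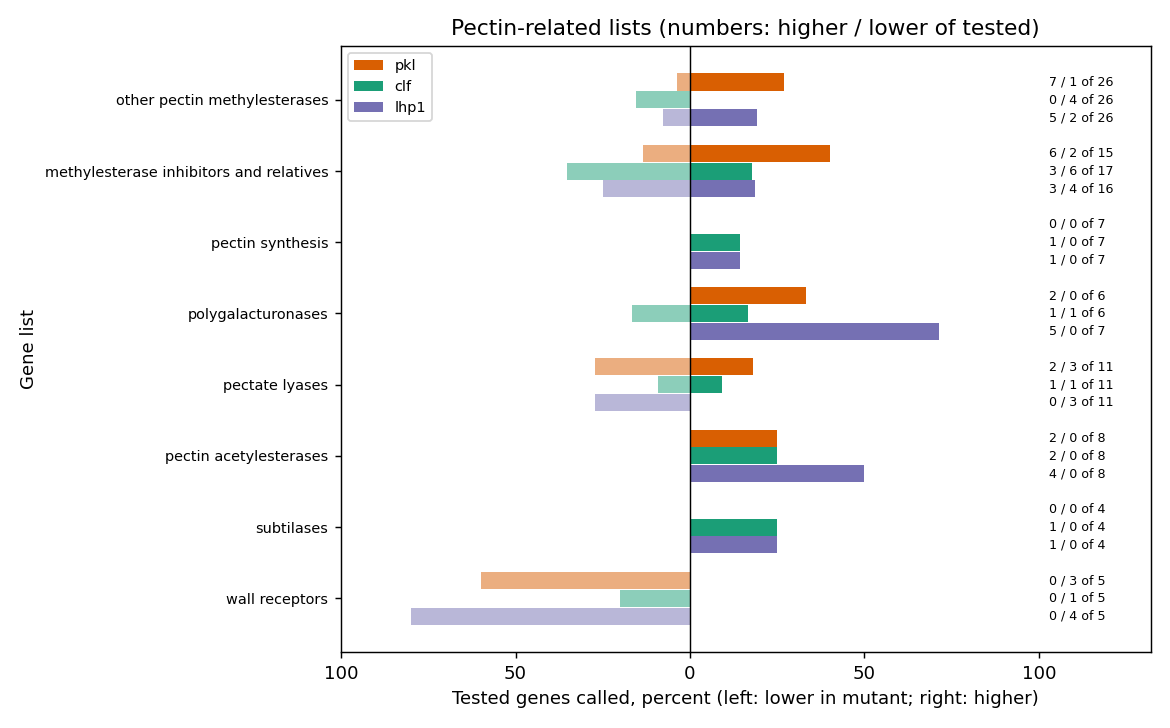
Percent of tested genes called (horizontal axis; right, higher in the mutant; left, lower) for each pectin-related list (vertical axis) in pkl, clf and lhp1, with the counts at the right. Wall receptors have calls to the left only, 3, 1 and 4 of 5, and polygalacturonases in lhp1 have 5 of 7 to the right.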

How the data were processed

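Per the submitters' processing notes, the data were made with TopHat, Cufflinks 2.1.1 and Cuffdiff 2.1.1 on TAIR10. The authors deposited 3 gene-level tables, each with 1 FPKM per group and locus, a test statistic (a score, not used here), and a p-value and q-value; the labels do not state over how many tests q was adjusted, the strand, or how libraries were scaled. Depth is unknown. WT FPKM differed between tables at 0 loci. The largest p among called loci was 0.00845 in each of pkl, clf and lhp1. The q-values therefore appear to have been adjusted over the comparisons together. A gene was called where status was OK and q under 0.05; this differed from the deposited flag at 0 loci. Log2 fold changes were computed without a pseudocount. The implied SE is the absolute log2 fold change over the two-sided normal quantile of the deposited p, and intervals are 1.96 SE to each side. Whether the deposited p-values follow this normal form was not tested, and the implied SE and intervals rest on that assumption. Where a gene had several loci the one of highest mean FPKM was taken; loci with several genes were left out of list counts. Authors' coordinates are TAIR10; gene structures and sequences come from RefSeq TAIR10.1 (28808 of 28809 single-gene loci overlap the gene of that name there), with alignments by blastn 2.17.0 of at least 50 bases. All 10 members are named, and per other list and mutant up to 3 called genes with the largest absolute log2 fold change and at least 1 FPKM in the higher group. AT3G10720 in pkl and lhp1, ADPG1, AT5G26810 and the SBT3.5, WAK4, PG1 and AT4G25260 loci were also named, after their values were seen. Members and lists were chosen with earlier results of these data known. Python 3.11.15, numpy 2.4.6, pandas 2.3.3 and scipy 1.17.1 were used. The upstream window of PME41 is not reported here.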

Additional observations from a re-analysis of the deposited data

How the results depend on the processing

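The counts of called genes stayed within 1.5 times of those reported under each alternative that could be run. With q under 0.01 the calls were 2 in pkl, 3 in clf and 4 in lhp1, since PME2 passed in neither pkl nor clf. With p-values adjusted within each table (Benjamini-Hochberg), or with at least 1 FPKM required in both groups, they were 3, 4 and 4, as reported. No called fold change of the 10 genes turned its sign with a pseudocount of 1 or 0.1, with centring on the median of single-gene loci or with rescaling to equal FPKM sums, nor did that of PME3 with both its loci summed (an alternative chosen after seeing the data, as was counting list genes in shared loci). No paired analysis was possible because the tables hold 1 value per group; for the same reason no library could be left out in turn. The tables give no depth, so how small a change they could show is unknown.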
